A study of Mus musculus with 12 samples.

Results

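The response of wild-type (WT) F9 cells to all-trans retinoic acid (atRA) was read from the 3 arrays of atRA-treated WT cells and the 3 arrays of vehicle-treated WT cells, 6 of the 12 arrays in the series. The arrays were taken by their labels: genotype WT, treatment atRA or ethanol, and sets 2, 3 and 4. F9 is an established mouse embryonal carcinoma line, grown on gelatin. All 6 dishes received the translation inhibitor cycloheximide at 1 µg/ml, beginning 30 min before the ligand. The treated dishes then had 1 µM atRA and the control dishes 0.1% ethanol for 7.5 h, which made 8 h in cycloheximide for both groups. The other 6 arrays, labelled RARaKO, were of F9 cells in which Rara, the gene of retinoic acid receptor alpha, had been knocked out, with the same treatments. The labels number the arrays by set and do not say whether sets were separate cultures, so p-values here gauge only how far these arrays scatter, and that scatter may be technical. Nor do they say how far translation was blocked, and no array of cells without cycloheximide was analysed here.

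Retinoic acid acts through nuclear receptors, the RARs, which sit on DNA as partners of the RXRs. Without ligand the pair holds corepressors, and with ligand it exchanges them for coactivators, so target genes can respond with no new protein being made. In the embryo the signal patterns the hindbrain and the trunk, in the germ line it starts meiosis, and F9 cells turn towards extraembryonic endoderm when they are exposed to it. The receptor pair binds repeats of a hexamer, and a direct repeat with a spacer of 5 bases is its classic response element. The promoters of the receptor gene Rarb and of Cyp26a1, the enzyme that breaks down the ligand, are shown because both genes were among the largest increases and their promoter windows held such a repeat. The RefSeq sequences (GRCm38.p6) are written 5′ to 3′ on the strand of the gene, with the hexamers in capitals and up to 30 bases on each side. For Rarb the stretch is chr14:16575483-16575559, minus strand, and for Cyp26a1 it is chr19:37697746-37697807, plus strand, where the repeat reads on the opposite strand.
Rarb: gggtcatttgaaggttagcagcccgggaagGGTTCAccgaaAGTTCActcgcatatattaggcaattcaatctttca
Cyp26a1: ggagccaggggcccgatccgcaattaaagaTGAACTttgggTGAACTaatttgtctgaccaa

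The Rarb repeat began 53 bases before the annotated start, and the Cyp26a1 repeat 32 bases before it. The search took windows from 250 bases before to 50 after the start, on both strands, for any pair of hexamers in the same direction. The consensus hexamer AGGTCA was accepted, and so were 3 variants of it. The first variant was AGTTCA, the next was GGGTCA and the last of them was GGTTCA. With a spacer of 5 bases it matched 2 of the 106 higher genes that had a window (1.89%), 0 of 20 lower genes, 10 of 13095 measured genes (0.0764%) and 32 of all 32851 windows (0.0974%). With a spacer of 1 or 2 bases it matched none of the 106 and none of the 20, against 36 (0.275%) and 13 (0.0993%) of the measured genes. A match is a description of the letters, and the absence of one says nothing about binding elsewhere.

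The values are expression per probe set on a scale taken as log2, each centred on the probe set's own 12-array median, so they show differences between arrays and no level of one gene against another. A probe set was called when its adjusted p was under 0.05 (limma, Benjamini-Hochberg over 37600 probe sets), and errors after ± are standard errors of the fit with 3 arrays a group unless SD is named. The test called 214 probe sets (0.569%): 182 were higher (0.484%) and 32 lower (0.0851%), and the 30 called by at least 1 log2 unit were all higher. An unadjusted p under 0.05 was reached by 2734 (7.27%). They named 163 of 16509 genes (0.987%), 137 higher (0.83%) and 26 lower (0.157%); 132 (0.8%) by the probe set chosen to stand for the gene and 31 by another of its probe sets. In each of the 214 the arrays of the groups did not overlap. So it was also for 6.22% of all probe sets with atRA on top and for 7.4% with vehicle on top. Gaps between the groups that are mentioned below for called genes describe what held for every call, and are no added support. The median difference was 0.57 among probe sets called higher and -0.49 among those called lower, against -0.01 over all genes, of which 43.8% lay above 0. Without 1 WT array 107 to 128 probe sets were called, 7 to 13 of them lower. Unless the block is named, calls come from the fit that leaves the pairing by set out. With the set number as a block, 339 probe sets were called, 258 higher and 81 lower, among them 210 of the 214. The arrays bear out that pairing less in set 4 than in sets 2 and 3. For counts in the gene lists below, the background is the 0.8% of genes called by their chosen probe set. At that share lists of these sizes can hold no called gene, so a list without one is not set apart by it. In bulk RNA a change per cell and a change in the share of cells cannot be told apart.

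**Figure D1:**
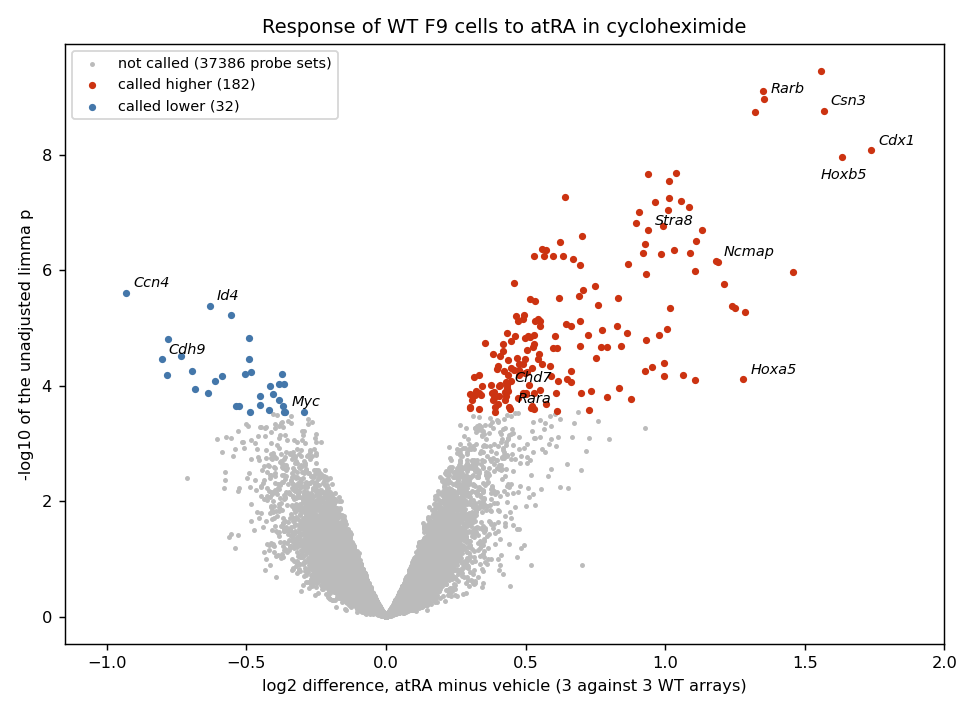
Log2 difference (atRA minus vehicle, WT) against -log10 of the unadjusted limma p for 37600 probe sets, with called probe sets in colour and some genes named. The 182 called higher reach 1.74, while the 32 called lower reach -0.93.

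The label F9 was checked on 12 embryonal carcinoma markers. Of these, 11 lay in the highest class of array level, a median of 8 or more on the log2 scale, among them Pou5f1, Nanog, Sox2 and Zfp42, and Fut4 lay in the class from 4 to 8. Their differences with atRA ran from -0.23 to 0.36 and none was called. Of 9 markers of the differentiated endoderm that F9 cells can form, 6 were in the highest class. Their differences ran from -0.17 to 0.19 with none called: Gata4 differed by 0.00 ± 0.10, Gata6 by 0.14 ± 0.16 and Sox17 by -0.17 ± 0.13. Signal at the 5' end minus that at the 3' end, averaged over the controls for Actb, Gapdh, Tfrc and Pcx as a reading of RNA quality, also differed between the groups. The vehicle arrays gave -0.0899, -0.123 and -0.0844 and the atRA arrays gave 0.0178, -0.0248 and -0.0128, so the groups did not overlap. As the values are centred per probe set, these readings show shifts between arrays and give no 5' to 3' ratio of any array. Gene by gene, only Tfrc kept the groups apart, with atRA above vehicle by 0.234, 0.367 and 0.276 in sets 2, 3 and 4. Pcx was higher with atRA in all 3 sets (0.236, 0.0714 and 0.0015), Gapdh in 2 of 3, and Actb was lower in all 3 (-0.0753, -0.0145 and -0.0081). The part of these readings in the results was not tested.

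In the retinoic acid pathway 2 of 6 receptor genes, 3 of 25 genes of retinoid uptake and metabolism and 1 of 18 co-regulators were called, against 0.8% of all genes, with list medians of 0.33, 0.00 and -0.06. All 6 called genes were higher, and 5 of them held whichever single WT array was left out. Rarb, a receptor, read -1.05, -1.01 and -0.94 in vehicle and 0.33, 0.31 and 0.41 in atRA. All 3 treated arrays lay more than a log2 unit above all 3 controls, and the difference was 1.35 ± 0.09 (adjusted p = 1.33e-05). For Cyp26a1 the vehicle arrays read -0.57, -0.90 and -0.59 and the atRA arrays 0.67, 0.66 and 0.65, again with a wide gap (1.35 ± 0.08, adjusted p = 1.33e-05). These are the genes whose promoter repeats are printed above. Dhrs3, a reductase that turns retinaldehyde back into retinol, read -0.85, -0.78 and -0.52 and then 0.30, 0.37 and 0.35 (1.06 ± 0.09, adjusted p = 1.76e-04). Stra6, the membrane receptor that takes up retinol, read -0.54, -0.31 and -0.55 against 0.18, 0.48 and 0.43 (0.83 ± 0.11). Nrip1, a corepressor recruited by liganded nuclear receptors, read -0.52, -0.57 and -0.59 against 0.65, 0.38 and 0.55 (1.09 ± 0.12). None of these groups overlapped. Of the 6 probe sets of Nrip1, 3 were called, the highest at 1.29 and the lowest of all at 0.06.

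Rara, the target of the knockout in the other 6 arrays, read -0.55, -0.50 and -0.76 in vehicle and -0.26, -0.05 and -0.17 in atRA. It rose by 0.45 ± 0.09 (adjusted p = 0.0460), the smallest change of the 6, and its call was lost without any single WT array (highest adjusted p = 0.197) and with the set as a block (0.0543). The same probe set read 0.29, 0.32 and 0.30 in the vehicle arrays labelled RARaKO and 0.26, 0.05 and 0.29 in their atRA arrays. It was therefore higher there than in any WT array, and does not bear out that label. The labels do not say which part of the gene was targeted, so this probe set cannot tell whether the label holds. Rarb and Rara were the called receptors, and among the others Rxrg differed by 0.50 ± 0.12 (adjusted p = 0.129), Rarg by 0.21 ± 0.07 (adjusted p = 0.385), Rxra by 0.05 ± 0.07 and Rxrb by 0.03 ± 0.06. In the retinoid list Aldh1a2, which makes retinoic acid, differed by -0.43 ± 0.09 (adjusted p = 0.0757, and 0.0232 with the block). The binding protein gene Crabp2 differed by 0.08 ± 0.07 and Cyp26b1, a paralogue of Cyp26a1, by 0.04 ± 0.15. Nrip1 was the sole member called among the co-regulators. Of 33 other nuclear receptors none was called by its chosen probe set (background 0.8%). Nr6a1, an orphan receptor that represses Pou5f1 during differentiation, rose by 0.50 ± 0.08 on 1 of its 4 probe sets, and the members with the smallest p in that list were Nr5a1 (-0.37 ± 0.08, adjusted p = 0.0662) and Esrra (0.28 ± 0.06, adjusted p = 0.0939).

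**Figure D2:**
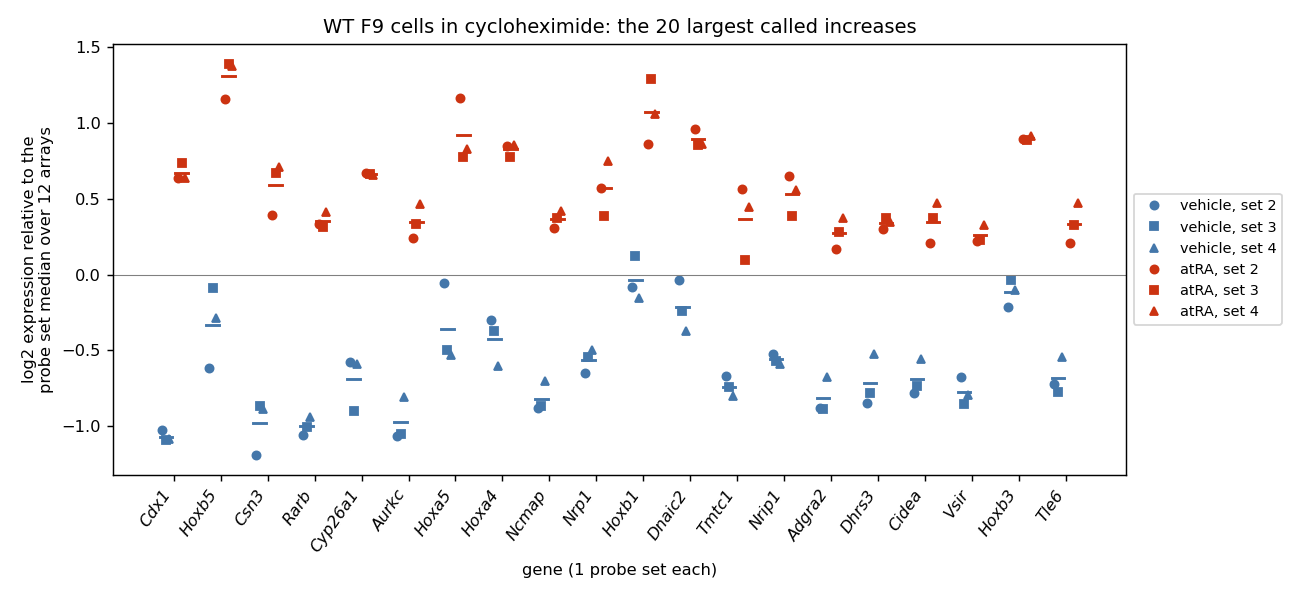
Value of each of the 6 WT arrays for the 20 genes with the largest called increases, in log2 relative to the probe set's median over 12 arrays; bars are group means and symbols mark the sets. A gene stands by its chosen probe set where that was called and otherwise by a called one. For each gene all 3 atRA arrays lie above all 3 vehicle arrays.

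Hox genes, which give cells of the body axis their position, were higher at one end of a pair of clusters. Paralogues 1 to 5 of Hoxa and Hoxb had 9 measured genes, and each was called on at least 1 probe set, with differences of 0.57 to 1.63. Among paralogues 6 to 13 of the same clusters 0 of 9 measured genes were called (-0.06 to 0.52), and in Hoxc and Hoxd 0 of 12 (-0.20 to 0.13). By chosen probe sets 6 of the 30 measured Hox genes were called (background 0.8%), all higher, with a list median of 0.06. Both ranges take a called probe set where a gene had one, which favours large values in the first. The division after paralogue 5 falls where the calls stop in these same values, so the contrast is a description and not a test.

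Hoxb1, the earliest hindbrain gene of its cluster, read -0.09, 0.12 and -0.15 in vehicle and 0.86, 1.29 and 1.06 in atRA (1.11 ± 0.11, adjusted p = 5.11e-04). The highest control was below the lowest treated array. Its neighbour Hoxb2 read -0.16, -0.02 and -0.32 against 0.85, 0.89 and 0.73 (0.99 ± 0.10). On one of 2 probe sets Hoxb3 read -0.21, -0.04 and -0.10 against 0.89, 0.89 and 0.91 (1.02 ± 0.09), and the other probe set differed by 0.34 ± 0.09 without being called. The treated arrays of Hoxb3 lay very close together. Hoxb4 rose by 0.57 ± 0.11 on one probe set (adjusted p = 0.0407) and differed by 0.44 ± 0.11 on the other. Hoxb5 had the largest change in the family and read -0.61, -0.09 and -0.29 against 1.15, 1.39 and 1.37 (1.63 ± 0.13, adjusted p = 5.93e-05). Beyond it the differences were 0.32 ± 0.09 for Hoxb6 and 0.15 ± 0.09 for Hoxb7, neither of them called. Hoxb13, at the far end, differed by 0.52 ± 0.15 (adjusted p = 0.232, and 0.0379 with the block).

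In the Hoxa cluster, Hoxa2 read -0.10, -0.30 and -0.30 in vehicle and 0.70, 0.61 and 0.79 in atRA (0.93 ± 0.14). On 1 of 4 probe sets Hoxa3 rose by 1.01 ± 0.14, and the other 3 differed by 0.03 to 0.39. Hoxa4 read -0.30, -0.37 and -0.60 against 0.84, 0.78 and 0.85 (1.25 ± 0.16). Groups were well apart in each of these. Hoxa5 was the least even: its vehicle arrays read -0.05, -0.49 and -0.53 and its atRA arrays 1.16, 0.77 and 0.83, with set 2 high in both. Its difference was 1.28 ± 0.22 (adjusted p = 0.0204). The call of Hoxa5 was lost in 5 of 6 fits without 1 array (highest adjusted p = 0.108), that of Hoxb4 in all 6 (0.179), and the other 7 Hox calls held. Gm15050, a transcript annotated between Hoxa3 and Hoxa4, rose by 0.50 ± 0.09, and its call was lost in all 6 fits without 1 array (highest adjusted p = 0.149). In the order of gene starts among measured genes, Hoxb1 to Hoxb5 made an unbroken run of 5 called genes, and Hoxa2 to Hoxa5 with Gm15050 another of 5. Neighbouring genes can overlap, and these probe sets cannot be assigned to a strand from the files.

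Other transcription factors and their partners gave 19 called genes. This and the following groups by function were drawn up after the values were seen and hold called genes only, so they have no measured total, and their splits stand beside 137 higher (84.0%) among all 163 called genes. Cdx1, a homeobox factor of the posterior axis, had the largest difference of any probe set. It read -1.03, -1.09 and -1.08 in vehicle and 0.63, 0.74 and 0.64 in atRA, 2 tight groups far apart, and rose 3.33-fold (1.74 ± 0.13, adjusted p = 5.18e-05). Of 13 measured Cdx and TALE genes, Pbx2 was the other one called (background 0.8%). Its product binds DNA together with Hox proteins, and it read -0.24, -0.28 and -0.34 against 0.25, 0.32 and 0.25 (0.56 ± 0.06). Cdx4 differed by -0.45 ± 0.16 (adjusted p = 0.474, and 0.0460 with the block), Meis1 by -0.07 ± 0.11 and Meis2 by 0.23 ± 0.16. None of 33 other homeobox patterning genes was called (background 0.8%). The smallest p belonged to Otx2, a gene of the anterior brain (-0.55 ± 0.14, adjusted p = 0.152), and Irx2 (-0.29 ± 0.08, adjusted p = 0.170).

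Sox3, a factor of early neural progenitors, read -0.58, -0.33 and -0.47 in vehicle and 0.19, 0.59 and 0.44 in atRA (0.86 ± 0.12, adjusted p = 0.00610), while its second probe set, of a lower level class, differed by 0.07 ± 0.09. Foxa1, a pioneer factor of endoderm, read -0.62, -0.52 and -0.54 against 0.22, -0.06 and 0.15 (0.66 ± 0.09). Snai1, a repressor of epithelial genes at gastrulation, rose by 0.51 ± 0.07. In all 3 genes the groups were apart. Tle6, of the Groucho corepressor family, rose by 1.01 ± 0.08, and Hivep3, a large zinc finger protein, by 0.91 ± 0.08 on its chosen probe set, while 3 of its 5 probe sets differed by -0.05 to 0.04. Foxp1, a forkhead repressor, was called on 5 of 8 probe sets, by 0.46 ± 0.05 on the one with the smallest p, while its chosen probe set was not called (0.31 ± 0.08, adjusted p = 0.174). Sox13, Myrf, Tal2, Irf5, Tshz1 and Zfp503 rose by 0.39 to 0.65. The calls of these last 6 and of Nr6a1 were lost without at least 1 array (highest adjusted p = 0.157), and that of Myrf in all 6 such fits. Irf5, Tshz1 and Zfp503 were called on a probe set other than the chosen one. Their chosen probe sets differed by 0.08 ± 0.09, 0.33 ± 0.09 and 0.29 ± 0.11 and were not called.

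Of 23 measured neural genes Sox3 was called higher and Neurog3 lower (list median -0.10, background 0.8% for this and the following lists). Elavl3, an RNA-binding protein of neurons, differed by 0.72 ± 0.18 (adjusted p = 0.134, and 0.0240 with the block). Nefl, a neurofilament gene, differed by -0.36 ± 0.09 (adjusted p = 0.156, and 0.0249 with the block). Foxa1 was the sole one of 29 extraembryonic endoderm genes called by its chosen probe set, with a list median of -0.04. Cdx1 and Snai1 were the 2 called of 24 streak and mesoderm genes, whose median was 0.09. Among 41 pluripotency genes Eras, a Ras-like gene of embryonic stem cells, rose by 0.48 ± 0.08 (highest adjusted p without 1 array 0.0779) and Myc fell by 0.36 (± 0.07), and the list median was -0.07. Pou5f1 differed by 0.04 ± 0.05, Nanog by 0.14 ± 0.14, Sox2 by 0.09 ± 0.08 and Zfp42 by -0.23 ± 0.16.

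Chromatin genes were called about as often as all genes. Over 6 lists (DNA methylation, Polycomb, histone methylation, histone acetylation, remodellers, and histone variants with their chaperones) 177 genes were measured and 1 was called, 0.565%, against a background of 0.8%. The median difference was -0.03, the middle 90% of genes lay between -0.18 and 0.14, and the median standard error was 0.081. By array level 152 of the 177 lay in the highest class, so dim probe sets were few among them. The called gene was Chd7, a remodelling ATPase of enhancers. It read -0.36, -0.34 and -0.56 in vehicle and 0.06, -0.02 and 0.00 in atRA, with a gap between the groups, and rose by 0.43 ± 0.08 (adjusted p = 0.0254). Its second probe set rose by 0.39 ± 0.08.

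Outside those lists 3 further chromatin proteins were called on at least 1 probe set. Zmym3, a zinc finger subunit of histone deacetylase complexes, rose on 3 of 4 probe sets and by 0.40 ± 0.07 on its chosen one. Dpf3, a histone reader in the BAF remodelling complex, rose by 0.41 ± 0.06 on one probe set and differed by -0.0043 ± 0.07 on the other, so its 2 probe sets disagree. Smyd4, a member of a methyltransferase family, rose by 0.32 ± 0.06 on one of 2. The calls of Chd7 and Smyd4 were lost in all 6 fits without 1 array (highest adjusted p 0.124 and 0.164). Those of Zmym3 and Dpf3 were lost in 4 of the 6 (highest adjusted p 0.098 and 0.0691).

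None of 33 Polycomb genes was called (background 0.8%), and the smallest p belonged to Pcgf2 (0.17 ± 0.08) and Phc3 (-0.18 ± 0.09). The core genes Ezh2 (-0.06 ± 0.06), Eed (-0.03 ± 0.06) and Suz12 (0.02 ± 0.14) are given here though chosen after their values were seen. For the 18 genes of DNA methylation and demethylation they were Zbtb33 (0.24 ± 0.09) and the methyltransferase gene Dnmt3b (-0.16 ± 0.07). For 46 genes of histone methylation they were Smyd2 (0.20 ± 0.07) and the demethylase gene Kdm1a (-0.16 ± 0.07), and for 30 of histone acetylation Hdac9 (-0.52 ± 0.12, adjusted p = 0.108) and the acetyltransferase gene Kat7 (0.12 ± 0.06). Among 20 histone variants and chaperones they were Nap1l2 (-0.20 ± 0.07) and H3f3a, a gene of the replacement histone H3.3 (-0.32 ± 0.16). The smallest difference called for any probe set was 0.29, and larger ones such as that of Hdac9 were not called. Changes of these genes below that size, and some above it, could not be told from none with 3 arrays a group.

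**Figure D3:**
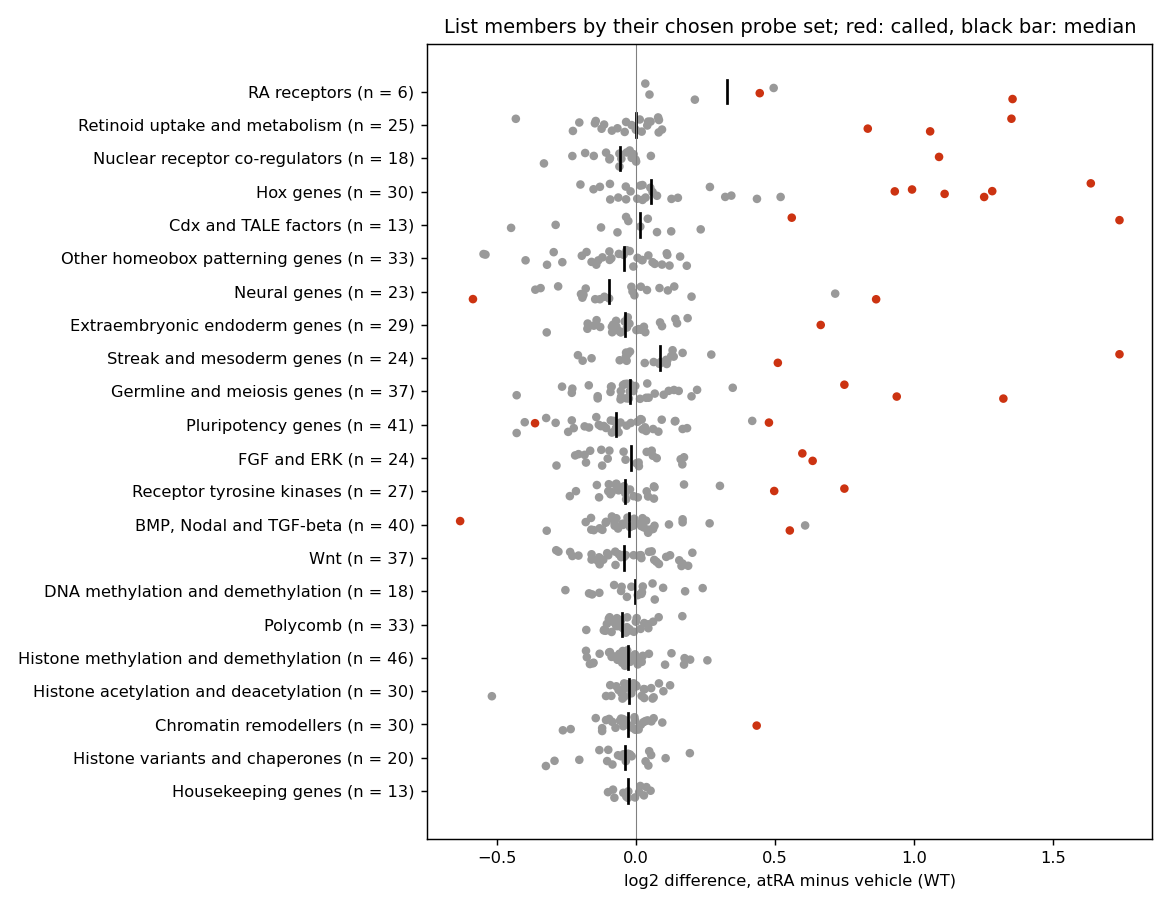
Log2 difference (atRA minus vehicle, WT) of every measured member of 22 gene lists by its chosen probe set, red where called, with the list median as a black bar; vertical scatter within a list has no meaning. Red points above 1 stand in the receptor, retinoid, co-regulator, Hox, Cdx, mesoderm and germline lists, and the sole red point in the 6 chromatin lists is Chd7 at 0.43.

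Among the called genes 15 encode cell surface receptors, and Ghr was the one of these that was lower. Nrp1, a receptor for semaphorins and VEGF, was called on all 4 of its probe sets. On the chosen one it read -0.65, -0.54 and -0.50 in vehicle and 0.57, 0.39 and 0.75 in atRA, with no overlap (1.13 ± 0.11, adjusted p = 3.64e-04). Pdgfrb, a receptor tyrosine kinase of mesenchyme, rose on both probe sets but by unlike amounts, 0.50 ± 0.08 and 1.46 ± 0.17. The second of them read -0.56, -0.79 and -0.59 against 0.73, 0.64 and 1.07. In the order of gene starts Pdgfrb is next to Cdx1. Kit, a receptor tyrosine kinase of germ and blood progenitors, read -0.40, -0.54 and -0.62 against 0.36, 0.02 and 0.32 (0.75 ± 0.09). Kit and Pdgfrb were the 2 called of 27 receptor tyrosine kinases (background 0.8%), with a list median of -0.04.

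Gfra1, the co-receptor for GDNF, rose by 0.99 ± 0.17, and Adgra2, an adhesion receptor that works with Wnt7, by 1.08 ± 0.10. Tnfrsf13c, the B cell receptor for BAFF, rose by 0.98 ± 0.11 and Fgfr4, an FGF receptor, by 0.64 ± 0.07 on 1 of 5 probe sets. The chemokine receptor gene Cxcr4 read -0.43, -0.54 and -0.63 in vehicle and 0.17, 0.04 and 0.20 in atRA (0.67 ± 0.07), and Ackr3, which binds the same chemokine, rose by 0.55 ± 0.09. Notch4 (0.79 ± 0.12, and -0.0096 and 0.27 on its other 2 probe sets) was the sole called one of 29 Notch and Hedgehog genes by its chosen probe set (background 0.8%). Chrna5, Adgre5, Cntfr and S1pr2 rose by 0.42 to 0.70. Ghr, the growth hormone receptor, fell by 0.56 (± 0.07) on one of 2 probe sets. Without single arrays the calls of Gfra1, Pdgfrb, Notch4, Ackr3, Cntfr and S1pr2 were lost at least once, with a highest adjusted p of 0.143 among them. That of Gfra1 was lost in all 6 such fits. For Pdgfrb this is the call of its chosen probe set, the one with the smaller rise.

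A further 19 called genes act in signalling inside the cell. Dusp5, a phosphatase that switches off nuclear ERK, read -0.51, -0.58 and -0.53 in vehicle and 0.05, 0.04 and 0.08 in atRA, 2 tight and separate groups (0.60 ± 0.06). With Fgfr4 it was one of 2 called of 24 FGF and ERK genes (median -0.02, background 0.8%). Smad6, an inhibitor of BMP signals, rose by 0.55 ± 0.08, and Pmepa1, which restrains TGF-beta signals, by 0.55 ± 0.08. Camk1, a calcium-dependent kinase, rose by 0.84 ± 0.13, while Camk2n1, an inhibitor of a related kinase, rose by 0.57 ± 0.06. The phosphatase gene Cdc25b, which lets cells enter mitosis, rose by 0.52 ± 0.08 as the sole called one of 33 cell cycle genes (median -0.02, background 0.8%). Radil, Dock6 and Rapgef3, which act through small GTPases, rose by 0.53 to 0.71, and the kinase genes Pim1 and Abl1 by 0.62 ± 0.11 and 0.45 ± 0.07. Dock6 was called on 1 of 2 probe sets (0.12 ± 0.07 on the other) and Rapgef3 on 2 of 5 (the lowest at -0.12). Abl1 was called on 1 of 3, with 0.03 ± 0.08 and 0.38 ± 0.09 on the others. Pim2, a paralogue of Pim1, read 0.75, 0.32 and 0.50 in vehicle and 0.02, -0.15 and -0.13 in atRA, and fell by 0.61 (± 0.11). The related genes Pim1 and Pim2 were thus called in opposite directions, and both calls were lost without at least 1 array (highest adjusted p 0.118 and 0.113).

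Germ cell genes were few but among the larger changes. Stra8, a gene needed to enter meiosis, read -0.87, -0.85 and -0.74 in vehicle and 0.11, 0.08 and 0.16 in atRA (0.94 ± 0.09, adjusted p = 3.64e-04). Aurkc, a kinase of meiotic chromosomes, read -1.06, -1.05 and -0.80 against 0.24, 0.33 and 0.47 (1.32 ± 0.09, adjusted p = 1.37e-05). Both had wide gaps between the groups. With Kit they were the 3 called of 37 germline and meiosis genes (background 0.8%), whose median was -0.02. Clgn, a chaperone of the testis, rose by 0.39 ± 0.07 on 1 of 3 probe sets, and lost its call in all 6 fits without 1 array (highest adjusted p = 0.155).

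Several of the largest increases were in genes best known from other tissues. Csn3, kappa-casein of milk, read -1.19, -0.86 and -0.88 in vehicle and 0.39, 0.67 and 0.71 in atRA (1.57 ± 0.10, adjusted p = 1.37e-05). Ncmap, a myelin protein, read -0.88, -0.87 and -0.70 against 0.30, 0.37 and 0.42 (1.18 ± 0.13). Tmtc1, a mannosyltransferase, rose on both probe sets, by 1.11 ± 0.13 and 1.56 ± 0.09. All of these had separate groups and held without any single array. Cidea, a protein of lipid droplets in brown fat, rose by 1.04 ± 0.08, Acp5, an osteoclast phosphatase, by 0.94 ± 0.08, and Actn2, an actinin of striated muscle, by 1.01 ± 0.09. Vsir, an immune checkpoint receptor, rose by 1.03 ± 0.11 on one of 2 probe sets and Muc1, a mucin of epithelia, by 0.92 ± 0.10.

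Thrsp, a factor in lipid synthesis, rose by 0.95 ± 0.16 on 1 of 3 probe sets, Proser2 by 0.93 ± 0.16 on one of 2 (0.08 ± 0.10 on the other) and Dnaic2, an axonemal dynein chain, by 1.11 ± 0.19 on one of 2, and these 3 calls were lost without at least 1 array (highest adjusted p 0.0901, 0.0983 and 0.104). H2-Bl, a class I histocompatibility gene with close relatives that could share its probes, rose by 0.93 ± 0.10. The glycerol channel gene Aqp3 was called on 3 of 4 probe sets. Its chosen one rose by 0.75 ± 0.12 and lost its call in 4 of 6 fits without 1 array (highest adjusted p = 0.0696). The others called rose by 0.96 ± 0.09 and 0.70 ± 0.07 (adjusted p = 1.76e-04 and 4.35e-04), and the uncalled one differed by 0.09 ± 0.07. Among the marker lists of other cell types Pdgfrb, in a fibroblast list of 13 measured genes, was the sole call (background 0.8%). None of 12 trophoblast markers was called (smallest p for Ascl2, -0.47 ± 0.19, and Tfap2c, 0.30 ± 0.17), nor of 15 blood and endothelial markers (Pecam1, 0.35 ± 0.11, and Itgam, -0.22 ± 0.10).

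The 26 genes called lower changed less than the leading increases, and 5 of them held without any single WT array, against 63 of the 137 called higher. With the set as a block 81 probe sets were called lower, against 32 without it. Among the called ligands and matrix proteins 7 were lower and 4 higher. Ccn4, a secreted matricellular protein induced by Wnt signals, read 0.53, 0.49 and 0.56 in vehicle and -0.54, -0.45 and -0.21 in atRA. The groups were far apart and it fell by 0.93 (± 0.11, adjusted p = 0.00190), on one of 2 probe sets, while the other differed by -0.41 ± 0.09 (adjusted p = 0.0838). Sema3c, a secreted ligand of neuropilin receptors, read 0.14, 0.45 and 0.38 against -0.72, -0.47 and -0.19 (-0.78 ± 0.13). Efnb2, an ephrin on the cell surface, read 0.48, 0.60 and 0.33 against -0.03, -0.06 and -0.01 (-0.50 ± 0.09), and its other 3 probe sets, none of them called, differed by -0.43, -0.38 and 0.14. With Nrp1 these were the 3 called of 38 guidance genes, 1 higher and 2 lower (background 0.8%). Fst, which binds and blocks activin, fell by 0.69 (± 0.12) on one of 2 probe sets, Sned1, a matrix protein, by 0.49 (± 0.07), Sulf1, which trims heparan sulphate, by 0.42 (± 0.07) on 1 of 3 probe sets, and Tnfaip6, a hyaluronan-binding protein, by 0.40 (± 0.08). The 4 increases were in Ltbp3, a latent TGF-beta binding protein (0.87 ± 0.10), Shh (0.48 ± 0.08 on one of 2 probe sets), Fstl3, a relative of Fst (0.43 ± 0.08), and Hbegf, a ligand of the EGF receptor (0.34 ± 0.06). In this group Ccn4, Sned1 and Ltbp3 held without any single array, and the highest adjusted p of the others was 0.179.

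Among regulators, Id4, which keeps helix-loop-helix factors off DNA, read 0.56, 0.35 and 0.27 in vehicle and -0.12, -0.33 and -0.26 in atRA. It fell by 0.63 (± 0.08, adjusted p = 0.00276), was called on 2 of 3 probe sets and held without any single array. Smad6 and Id4 were the 2 called of 40 BMP, Nodal and TGF-beta genes by their chosen probe sets (median -0.03, background 0.8%). Inhbb, an activin subunit, differed by 0.61 ± 0.15 (adjusted p = 0.122, and 0.00172 with the block). Neurog3, a factor of endocrine pancreas fate, read 0.51, 0.12 and 0.32 against -0.27, -0.41 and -0.12, with groups close but apart, and fell by 0.59 (± 0.10). Eya1, a co-activator in organ formation, fell by 0.64 (± 0.12) on one probe set and differed by -0.13 ± 0.15 on the other. Myc, the growth regulator, read 0.42, 0.38 and 0.30 against -0.04, 0.13 and -0.09 (-0.36 ± 0.07, adjusted p = 0.0499), at the edge of the threshold, and was the sole one of 23 immediate-early genes called. The calls of Neurog3, Eya1 and Myc were lost in 4, 6 and 5 of the 6 fits without 1 array (highest adjusted p 0.0978, 0.152 and 0.245).

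In adhesion, Cdh9, a cadherin of neurons and kidney, read 0.56, 0.49 and 0.21 in vehicle and -0.18, -0.50 and -0.48 in atRA (-0.80 ± 0.13). It was the sole called one of 14 cadherins (background 0.8%). Cdh10 differed by -0.38 ± 0.12 (adjusted p = 0.307, and 0.0237 with the block). St8sia4, which adds polysialic acid to NCAM, read 0.81, 0.52 and 0.60 against -0.14, -0.17 and 0.04 (-0.73 ± 0.12), and its second probe set differed by -0.07 ± 0.10. The motor protein gene Myo5a fell by 0.42 (± 0.08) on 1 of 3 probe sets. Cdh9, St8sia4 and Myo5a each lost their call in at least 3 fits without 1 array (highest adjusted p 0.077, 0.0704 and 0.201). AW551984 fell by 0.78 (± 0.12) and held, though its other 2 probe sets differed by -0.03 ± 0.12 and -0.135 ± 0.09 and were not called. Slc27a2, a fatty acid transporter and ligase, fell by 0.53 (± 0.10), and Rnf112, Panct2 and Hps3 fell by 0.38 to 0.45, none of these 4 holding in all 6. Ago1, of the small RNA silencing machinery, had the smallest called change of all (-0.29 ± 0.06, adjusted p = 0.0499) and was not called with the block (0.0529). Against the background of 0.8%, none of 37 Wnt genes was called (smallest p for Sfrp2, -0.29 ± 0.08, and Sfrp1, -0.28 ± 0.11). Nor was any of 27 p53 targets and cell cycle brakes (Sesn1, 0.35 ± 0.09, and Plk3, 0.33 ± 0.10). The same held for 13 housekeeping genes (Ywhaz, -0.10 ± 0.07, and Hprt, -0.08 ± 0.07).

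**Figure D4:**
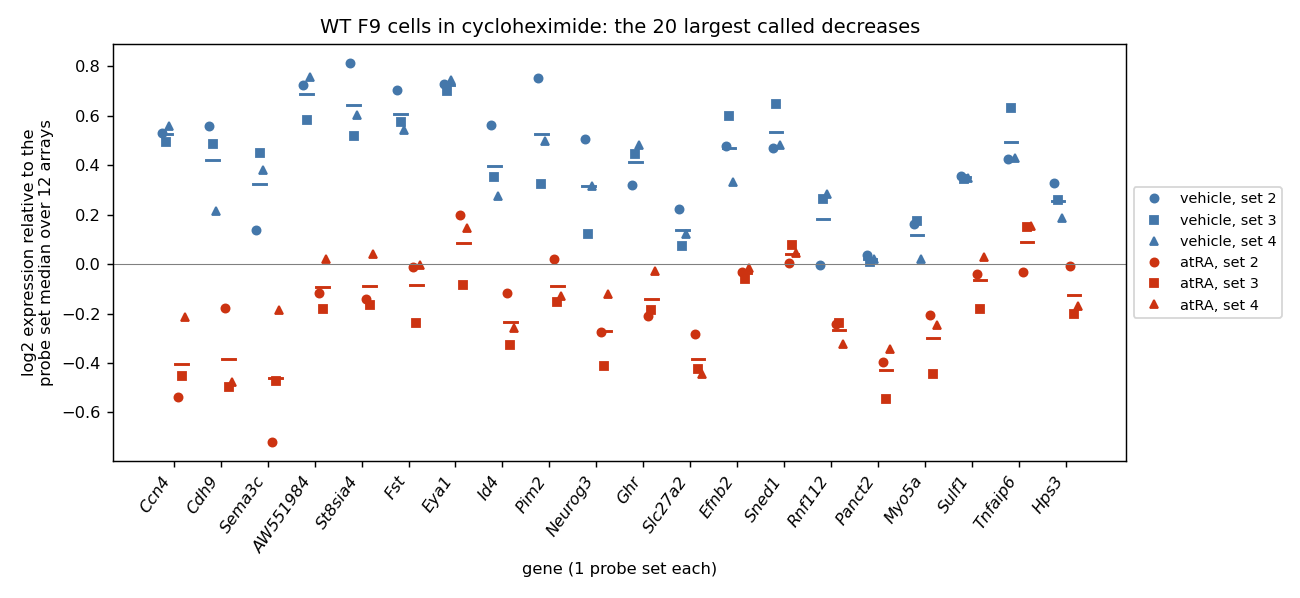
Value of each of the 6 WT arrays for the 20 genes with the largest called decreases, in log2 relative to the probe set's median over 12 arrays; bars are group means and symbols mark the sets. For each gene all 3 vehicle arrays lie above all 3 atRA arrays, with smaller gaps than for the largest increases.

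At the threshold, Accsl (0.61 ± 0.12, adjusted p = 0.0499) was just called and Dcaf12l1 (0.69 ± 0.14, adjusted p = 0.0501) just missed. Of the 163 called genes, 91 had several probe sets. In 77 of the 91 all of them pointed the same way, in 10 all were called, and in none were probe sets called in both directions. Other adjacent pairs of called genes, all higher, were Dpf3 with Dcaf4, Tshz1 with Zadh2, and Prss46 with Prss50.

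The arrays labelled RARaKO shared no array with the WT arrays, but both differences came from the same fit, with a shared estimate of the spread. Calls in the RARaKO arrays are therefore not independent of the WT calls. There 99 of 37600 probe sets were called (0.263%). Of the 163 genes called in WT, 67 (41.1%) were also called there by the same probe set. A difference of the same sign was found for 162, Rara being the exception with -0.10 ± 0.09. The share of all probe sets with the same sign in both genotypes is not given here. Cyp26a1 differed by 1.38 ± 0.08 there, Rarb by 0.95 ± 0.09, Cdx1 by 1.45 ± 0.13, Hoxb1 by 0.74 ± 0.11 and Ccn4 by -0.70 ± 0.11, all of them called. Hoxa2 differed by 0.45 ± 0.14 (adjusted p = 0.333), Peg12 by 0.05 ± 0.07 and Myo5a by -0.02 ± 0.08, the last pair chosen after their values were seen. Tested directly as the WT difference minus the RARaKO difference, no probe set was called (limma, 0 of 37600, also with the block and with array weights), and 1168 (3.11%) had an unadjusted p under 0.05. This difference was 0.55 ± 0.13 for Rara, 0.40 ± 0.12 for Rarb, 0.38 ± 0.10 for Peg12 and -0.03 ± 0.12 for Cyp26a1, each with an adjusted p of 1.00. Its median standard error was 0.124, against 0.0879 for the WT difference.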

How the data were processed

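Total RNA (5 µg) was labelled for Affymetrix mouse arrays. The deposited values were made by the authors with GCRMA, per the submitters' processing notes (version not given there), and are taken as log2, a base no source used here states. Each probe set was found to be centred on its median over 12 arrays, so levels are lost. The rounding steps of the values gave a coarse level class (under 4, 4 to 8, at least 8). Of 37661 probe sets 61 controls were left out, 30488 of the rest had 1 symbol, 784 several and 6328 none. Symbols came from the platform annotation, updated by gene ID. A gene stands by its probe set of highest class, then least ambiguous type, then lowest identifier.

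All 12 arrays entered a limma 3.58.1 fit (R 4.3.3; 4 group means, no block, two-sided tests, 8 residual and 4.6 prior degrees of freedom), tested on simulated data. Genes could be named if among the 30 largest increases or 20 largest decreases called, where the groups also had to be without overlap. They could also be named if called in a list or functional group, or of smallest p in a list without calls. Some called genes of these groups are not named. The members and lists were chosen with earlier results of these data known. Same-numbered WT arrays deviated together in sets 2 and 3 (r = 0.392 and 0.267). For set 4 r was 0.101, below the 0.124 of vehicle set 4 with atRA set 3. The set numbers were taken as pairs only in the fits with the block, and the main fit leaves them out. The blocked value is given where it changes the call of a called gene or list member. For Clps the adjusted p of the limma fit with the block was 0.0562. Precision is limited by the number of arrays.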

Additional observations from a re-analysis of the deposited data

Results flagged for a closer look

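The control probe sets, which entered no comparison, separated the WT groups. Signal at the 5' end minus that at the 3' end, averaged over Actb, Gapdh, Tfrc and Pcx, was 0.0925 higher with atRA than with vehicle, and the 3 arrays of each group did not overlap. Taken singly, Tfrc alone kept them apart, and Actb was lower with atRA in all 3 sets. Its part in the results was not tested.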

How the results depend on the processing

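Of the 31 genes named by a probe set other than the chosen one, 5 had the opposite sign on the chosen one, none of them called: Nol4l -0.11, Aif1l -0.021, Nfasc -0.0066, Dpf3 -0.0043 and Mfsd6 0.059. No other call of the 163 genes turned direction under the settings run. Against 214 called probe sets (182 higher, 32 lower, 30 by at least 1 log2 unit), the replicate block for the pairing by set gave 339, 258, 81 and 30, and array weights 382, 304, 78 and 34. Without 1 WT array the count lay between 107 and 128 (95 to 117 higher, 7 to 13 lower, 25 to 29 by at least 1 log2 unit). Without set 2, 3 or 4 it was 61, 40 or 47 (59, 39 or 43 higher; 2, 1 or 4 lower; 26, 17 or 24 by at least 1 log2 unit); these fits test fewer arrays. Counts by at least 1 log2 unit were 11 among probe sets of class 8 or more, 19 with 1 probe set per gene and 15 with the mean of a gene's probe sets, which all test fewer rows. The 6 WT arrays alone (171, or 224 with the block), median centring (211) and quantile normalization (249) stayed within 1.5 times the count.

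Of 163 called genes 160 kept their call with the block (not Rara, Clps and Ago1), all 163 with array weights, 159 after either rescaling, 107 with the 6 WT arrays alone, 68 without each single WT array in turn and 19 without each set in turn. Counting a gene by its chosen probe set gave 132, and by any probe set, a rule added after the data were seen, 163. With 3 arrays a group and no levels, small changes and dim genes are the least secure.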
